A study of Homo sapiens with 6 samples.

Results

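The zinc finger genes of human chromosome 19 were examined in a pleural mesothelioma line with a control guide and with a guide to NF2. The group was defined as every protein-coding gene that the count table places on chromosome 19 and whose symbol is ZNF followed by a number, which gave 246 of 58735 genes in the table. The cells were H2452, an established human mesothelioma line, infected with a lentivirus that carries Cas9, mCherry and a single guide RNA, and then sorted for mCherry. There were 3 libraries with a scrambled control guide (sgCtrl, genotype WT in the labels) and 3 libraries with a guide to NF2 (sgNF2-1, genotype NF2-KO in the labels), with no other treatment named in the labels. The sorted cells were a pool with 1 guide per arm, so an effect of the guide itself cannot be told apart from loss of the gene. The study's statistics section calls its replicates biological in general, the labels do not say how the libraries of an arm were separated, and each p-value measures the spread between these libraries.

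Most of these genes encode C2H2 zinc finger proteins, in which a row of small zinc-binding modules reads DNA. Many of them also carry a KRAB box, a short domain that recruits the corepressor TRIM28 and with it histone methylation and heterochromatin, and a well-known target of such proteins is the DNA of transposable elements. They arose by repeated tandem duplication, which is why chromosome 19 holds them in dense clusters whose neighbours resemble each other. NF2 encodes merlin, an upstream part of the Hippo pathway, and its loss is known to release the coactivators YAP and TAZ, which act through TEAD factors.

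NF2 itself was read at 1162, 1197 and 1025 counts in the sgCtrl libraries and at 692, 802 and 590 counts in the sgNF2-1 libraries, a log2 fold change of -0.69 ± 0.10 (SE, n = 3 against 3, adjusted p = 7.9e-06), so that its transcript fell and was not lost. Total counts ran from 14782423 to 17416463 per library. Of 14 mesothelial markers, 10 had a mean of at least 1 CPM (the count of a gene scaled to the size of its library), MSLN and WT1 among them, while ITLN1 was listed at 0. Of the 14, 4 rose (BNC1, KRT7, KRT18 and MSLN) and 3 fell (KRT19, PDPN and WT1), and their sum overlapped between the arms, at 3532 to 3975 CPM in sgCtrl and 3452 to 4185 CPM in sgNF2-1 libraries. Of 12 markers of other lineages, 2 reached that level and both fell, CD14 from 139 to 66.9 CPM (log2 fold change -1.06, adjusted p = 5.7e-10) and PECAM1 from 6.31 to 1.3 CPM (-2.28, adjusted p = 1.7e-07). The sum of those 12 lay between 140.6 and 154.5 CPM in sgCtrl and between 65.9 and 72.98 CPM in sgNF2-1 libraries, and PTPRC was at 0. The part of these shifts in the results on zinc finger genes was not tested. CPM values here were scaled by edgeR's TMM factors.

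As a group the zinc finger genes took a small and steady share of the RNA. Of the 246 genes, 7 had no count in any library, and 54, these included, did not pass the filter on low counts and never exceeded 17 counts in a library. The other 192 were tested. The 246 genes together held between 0.157% and 0.176% of the counts of a library. Their summed level was 1660, 1644 and 1604 CPM in the sgCtrl libraries and 1741, 1762 and 1680 CPM in the sgNF2-1 libraries. Thus every sgNF2-1 library lay above every sgCtrl library, and the sgNF2-1 mean was 106% of the sgCtrl mean, although the lowest sgNF2-1 value was close to the highest sgCtrl value. With library totals in place of TMM factors the sum was 104% of the sgCtrl mean and the arms overlapped, with shares of 0.170%, 0.168% and 0.157% of the counts in sgCtrl and 0.176%, 0.175% and 0.162% in sgNF2-1 libraries.

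Per unit of transcript length the genes were low. The median of the tested genes was 0.866 FPKM (fragments per kilobase of transcript, scaled to depth), against 4.93 FPKM for all tested protein-coding genes; 84 of the 192 reached 1 FPKM and 14 reached 5 FPKM. The highest level on the FPKM scale was that of ZNF787, 17.8 ± 0.816 FPKM in sgCtrl and 25.8 ± 1.33 FPKM in sgNF2-1 cells (SD, n = 3 each). ZNF524 followed with 19.1 ± 2.73 and 22.7 ± 3.30 FPKM, and ZNF580 with 17.9 ± 2.22 and 21.8 ± 1.57 FPKM. In the sgCtrl libraries these 3 levels differed by less than their spread. ZNF146, a protein of fingers alone that is also known as OZF, stood at 16.4 ± 0.462 and 18 ± 1.55 FPKM, followed in mean level by ZNF358, ZNF581, ZNF428, ZNF865, ZNF414 and ZNF579. None of these 10 most abundant members carried a KRAB pattern in its protein, although 201 of the 246 members did under the wider of the patterns searched.

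Targeting NF2 changed few of these genes and by modest amounts. Under edgeR's quasi-likelihood test with Benjamini-Hochberg adjustment over all 14179 tested genes, 10 of the 192 members rose and 9 fell at an adjusted p below 0.05. These 19 made up 9.9% of the tested members, whereas 34.3% of all tested genes were called, 17.7% as higher and 16.6% as lower. The median log2 fold change of the members was 0.01, beside 0 for all tested genes, and single members ranged from -1.24 to 0.81. The extremes, ZNF682 at -1.24 (adjusted p = 0.052) and ZNF610 at 0.81 (adjusted p = 0.25), were read at 0.645 and 0.666 CPM on average and were not called. In 40 members (20.8%) the CPM values of the arms did not overlap, against 45.3% of all tested genes. The 95% confidence interval of the log2 fold change lay within ±1 for 155 members and within ±0.5 for 44. Without sgCtrl replicate 2 the calls dropped to 6 higher and 3 lower, in a fit that called 27.1% of all tested genes. Without sgNF2-1 replicate 3 the lower calls dropped to 5, in a fit that called 29.5% of all tested genes.

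Low read numbers went with few calls, so the members were also set beside genes of like level. Under 2 CPM none of 37 members was called by edgeR, against 17.2% of 1138 other tested protein-coding genes; 4 of the 37 had an unadjusted p below 0.05. Between 2 and 10 CPM, 1 of 114 members rose and 7 fell, which is 7.02%, whereas 31.7% of 2108 other protein-coding genes were called in that range. The median SE of the log2 fold change was 0.22 for those members and 0.21 for those other genes. From 10 CPM on, 9 of 41 members rose and 2 fell, which is 26.8% against 41.6% of 8648 other genes. ZNF genes of other chromosomes, matched by the same form of symbol, had 33 higher and 17 lower calls of 210 tested (23.8%). Those counts depended on single libraries, with 18 higher and 11 lower without sgNF2-1 replicate 1, 19 higher without sgNF2-1 replicate 2, 9 lower without sgCtrl replicate 2 and 11 lower without sgNF2-1 replicate 3. Within the 2 to 10 CPM range they had 10 calls of 86 (11.6%), and from 10 CPM on 36 of 104 (34.6%). The other protein-coding genes of chromosome 19 had 193 higher and 75 lower calls of 690 tested, with a median log2 fold change of 0.12. These shares are descriptions, and the differences between groups of genes were not tested.

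**Figure D1:**
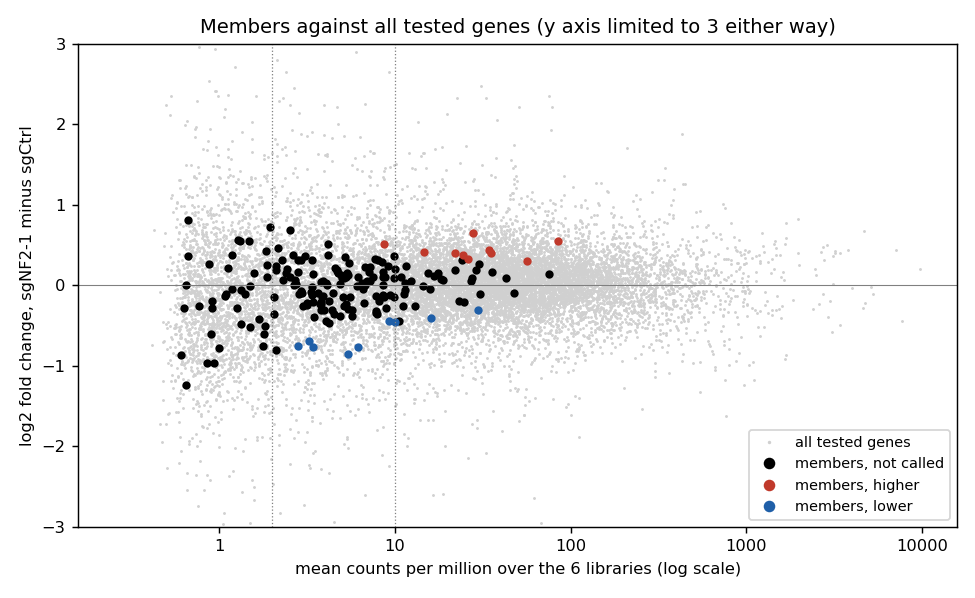
Log2 fold change (sgNF2-1 minus sgCtrl, y axis) against mean CPM over the 6 libraries (x axis, log scale) for the tested members (black, or red and blue where called higher and lower) and for all 14179 tested genes (grey); dotted lines mark 2 and 10 CPM. Of the 10 members that rose 9 lie at 10 CPM or above, and of the 9 that fell 7 lie between 2 and 10 CPM.

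Among the genes that rose, ZNF787 (chr19:56087366-56121280, minus strand, hg38) combined the highest level with the smallest adjusted p. It was read at 69.8, 65.4 and 71.8 CPM in sgCtrl libraries and at 96.2, 100 and 107 CPM in sgNF2-1 libraries, a log2 fold change of 0.55 ± 0.08 (SE, adjusted p = 1.6e-05). ZNF581 had the largest increase, 0.65 ± 0.11 on the log2 scale (adjusted p = 4.7e-05), with 23.0, 20.5 and 21.5 CPM against 33.5, 31.9 and 36.4 CPM. In both genes every sgNF2-1 library lay well above every sgCtrl library. ZNF581 (chr19:55635459-55645622) and ZNF580 (chr19:55635016-55643469) lie on the same strand with spans that overlap each other and CCDC106, and reads of such a locus can be hard to assign to 1 gene. ZNF580 was read at 57.6, 45.0 and 50 CPM against 58.9, 60.8 and 67.6 CPM, a smaller increase of 0.30 ± 0.10 (adjusted p = 0.023), which was not called without sgCtrl replicate 2 (0.21, adjusted p = 0.16). ZNF579, which lies in the same stretch, rose by 0.33 ± 0.12 (adjusted p = 0.042) with arms that overlapped, 27.4, 23.2 and 19.2 CPM against 27.1, 31.3 and 29.1 CPM. It was called in 6 of its 12 alternative fits.

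The other genes that rose were spread over the short arm and the far end of the long arm. ZNF358 (chr19:7515292-7521026) went from 32.9, 24.9 and 29.3 CPM to 36.5, 39.2 and 42.7 CPM (0.44 ± 0.11, adjusted p = 0.0032). ZNF317 (chr19:9140380-9163424) went from 30.2, 33.4 and 28.2 CPM to 41.2, 42.8 and 36.8 CPM (0.40 ± 0.10, adjusted p = 0.0045). Neither gene's arms overlapped. ZNF562 rose by 0.38 ± 0.11 (adjusted p = 0.010), from 19.9, 22.0 and 21.9 CPM to 29.4, 29 and 24.8 CPM. ZNF773, at the far end of the long arm, rose by 0.51 ± 0.16 (adjusted p = 0.017) from a lower level, 7.68, 6.34 and 7.51 CPM against 11.9, 9.72 and 8.92 CPM. The remaining calls were ZNF426 (0.41, adjusted p = 0.034) and ZNF561 (0.40, adjusted p = 0.015), named after their values were seen, whose arms overlapped. ZNF561 and ZNF562 both overlap the span of the antisense gene ZNF561-AS1, and the library kit was not stated to keep strand. In the transcript comparison below, an overlapping gene shared 17.5% of the runs of ZNF562 and 0.0% of those of ZNF561. In the shared part, reads of the antisense gene cannot be told apart from those of ZNF562.

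The genes that fell were for the most part expressed at lower levels. ZNF226 (chr19:44165073-44178381) fell from 6.85, 6.40 and 7.71 CPM to 4.15, 3.63 and 3.79 CPM, the largest called decrease (log2 fold change -0.85 ± 0.19, adjusted p = 0.0011). Its neighbour ZNF224, whose KRAB protein is known as a repressor of the aldolase A gene, was called at -0.76 ± 0.29 (adjusted p = 0.041). Its values of 3.36, 4.93 and 4.68 CPM against 3.86, 1.49 and 2.18 CPM overlapped, and without sgNF2-1 replicate 2 it stood at -0.50 (adjusted p = 0.20). ZNF700 fell by 0.77 on the log2 scale (SE 0.21, adjusted p = 0.0068), from 6.79, 10.5 and 6.06 CPM to 3.58, 4.86 and 5.34 CPM. ZNF823 fell from 3.24, 3.78 and 3.56 CPM to 1.65, 2.01 and 2.67 CPM (-0.75 ± 0.27, adjusted p = 0.031). In ZNF700 and ZNF823, which lie in 1 subcluster, each sgNF2-1 library was below each sgCtrl library. ZNF429 fell by 0.69 on the log2 scale (SE 0.25, adjusted p = 0.037), with 3.55, 5.06 and 3.49 CPM against 2.78, 2.66 and 2.04 CPM, and stood at -0.49 without sgCtrl replicate 2 (adjusted p = 0.23).

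At higher levels 4 more genes fell by smaller amounts, none with overlapping arms. ZNF302 went from 32.6, 32.7 and 33.3 CPM to 26.4, 25.7 and 27.9 CPM (log2 fold change -0.30 ± 0.10, adjusted p = 0.025). ZNF266 went from 20.9, 18.3 and 16.1 CPM to 15.3, 15 and 11.2 CPM (-0.41 ± 0.14, adjusted p = 0.024), although it lies between genes that rose. ZNF175, also named OTK18 and known as a repressor of the HIV promoter, went from 11.5, 10.8 and 12.2 CPM to 8.07, 9.01 and 8.15 CPM (-0.45 ± 0.15, adjusted p = 0.018). ZNF304, a KRAB protein, went from 11.7, 11.0 and 9.56 CPM to 8.58, 8.49 and 6.60 CPM (-0.44 ± 0.16, adjusted p = 0.033). For any single gene taken alone an exact permutation test of 3 against 3 libraries cannot go below p = 0.1.

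The same question was asked of the deposited FPKM values with limma on log2(FPKM + 1), where 136 members reached a mean of 0.5 FPKM. There 4 members rose and 3 fell, and these 7 were also called in the same direction on counts, beside 28.4% of all genes tested on this scale. ZNF787, ZNF581, ZNF358 and ZNF317 rose, and ZNF226, ZNF823 and ZNF302 fell. Without sgNF2-1 replicate 2 a total of 2 members were called, and without sgCtrl replicate 2 or sgNF2-1 replicate 1 a total of 3. The share of all genes called on this scale fell as well, to 19.7%, 19.2% and 20.2% in these 3 fits.

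Members with a documented role were read in every library whatever their change. ZNF91 and ZNF93, which are known to silence SVA and L1 retroelements, were at 15.8 and 1.87 CPM on average and had log2 fold changes of -0.05 ± 0.14 and 0.11 ± 0.32. ZNF274, which brings SETDB1 to the ends of other zinc finger genes, had a log2 fold change of 0.08 ± 0.13 at 18.4 CPM. ZNF350, the BRCA1 partner also named ZBRK1, stood at 0.03 ± 0.18, and the imprinted gene ZNF331 at 0.38 ± 0.41 with only 1.18 CPM. ZNF420, a p53 regulator also named APAK, stood at 0.32 ± 0.26, ZNF568, whose mouse ortholog silences a placental growth factor transcript, at 0.25 ± 0.33, and ZNF675, an interactor of the adaptor TRAF6, at 0.00 ± 0.17. ZNF382, ZNF154 and ZNF671, known as genes whose promoters become methylated in tumours, stood at 0.00 ± 0.50, 0.36 ± 0.50 and -0.23 ± 0.23. ZNF146 stood at 0.14 ± 0.09 and ZNF558 at 0.19 ± 0.11. None of these 13 passed the threshold, and of the 15 fixed by role only ZNF224 and ZNF304 did.

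The members were then divided by position wherever more than 1 Mb separated a gene from the next member, which gave 9 subclusters of at least 5 members and 11 isolated members. Beside the counts below, 17.7% of all tested genes rose and 16.6% fell. Among protein-coding genes outside the members these shares were 22.7% and 18.9% from 10 CPM on, and 13.6% and 18.2% between 2 and 10 CPM. Subcluster 2 (7.07 to 9.79 Mb, from ZNF557 to ZNF846) leaned up. Of its 15 genes 12 were tested, and 5 rose (41.7%), namely ZNF358, ZNF317, ZNF426, ZNF561 and ZNF562. In the other direction 1 fell (8.33%), namely ZNF266. The median log2 fold change was 0.33, at a median level of 22.1 CPM. Its summed level was 225.0, 212.7 and 209.0 CPM in sgCtrl libraries and 257.5, 275.1 and 245.6 CPM in sgNF2-1 libraries, 120% of the sgCtrl mean with no overlap. Among the 29 other tested protein-coding genes inside the same span 7 rose and 4 fell, with a median of 0.15. Its median was 0.20 without sgCtrl replicate 2. Joined with subcluster 3, as a gap of 2 Mb does, the 25 tested genes had 5 higher and 3 lower calls and a median of -0.13.

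Subclusters 3 and 4 leaned the other way in their medians, at lower median levels of 4.85 and 4.23 CPM. Their shares of lower calls, 15.4% and 3.85%, did not exceed the 16.6% of all tested genes. Direction also differed by level, with 9 higher and 2 lower members from 10 CPM on and 1 and 7 between 2 and 10 CPM. Of the other protein-coding genes of chromosome 19 from 10 CPM on, 34.9% rose and 10.6% fell. The parts of level and position were not tested. Subcluster 3 (11.48 to 12.64 Mb, ZNF653 to ZNF791) held 25 genes, of which 13 were tested; ZNF700 and ZNF823 fell, none rose, only 2 had a fold change above 0 and the median was -0.26. Its most abundant gene per length, ZNF791, had a log2 fold change of -0.21 ± 0.12 (adjusted p = 0.21). The sum went from 90.09, 93.27 and 83.76 CPM to 81.38, 76.84 and 74.22 CPM, 87.0% of the sgCtrl mean, while both of the other tested protein-coding genes in its span rose, with a median of 0.40. Subcluster 4 (19.67 to 24.13 Mb, ZNF101 to ZNF254), the block next to the centromere where the ZNF91 family expanded in primates, held 37 genes with 26 tested. Here ZNF429 fell, none rose, 6 fold changes were above 0, and the median was -0.22. ZNF486, its most abundant gene per length, stood at -0.34 ± 0.17 (adjusted p = 0.12), and ZNF91 and ZNF675 at about 0 as given above. The sum was 139.1, 154.3 and 141.3 CPM in sgCtrl and 129.7, 131.5 and 117.2 CPM in sgNF2-1 libraries, 87.1% of the sgCtrl mean. The arms were apart in both sums, while few of the single genes passed the test.

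On the long arm, subcluster 5 (34.68 to 34.96 Mb) had 4 tested genes, and its sum of 49.23, 49.35 and 48.30 CPM against 43.53, 42.50 and 43.96 CPM was carried mostly by ZNF302. Subcluster 6 (36.18 to 37.82 Mb) had no call by edgeR among 18 tested genes, 1 at an unadjusted p below 0.05, and a median of 0.08. Of 4 other genes in its span 1 rose and 2 fell (median -0.23). Subcluster 7 (43.53 to 45.08 Mb, ZNF575 to ZNF296) had 17 tested genes, of which ZNF224 and ZNF226 fell (11.8%), with a median of -0.10. Its sum went from 74.42, 77.80 and 72.95 CPM to 63.76, 67.38 and 65.10 CPM, 87.2% of the sgCtrl mean, again with the arms apart, and its median was -0.19 without sgCtrl replicate 1, -0.24 without sgCtrl replicate 3 and -0.23 without sgNF2-1 replicate 2. Of 16 other genes in its span 5 rose and 2 fell (median 0.09). Its most abundant gene per length, ZNF428, stood at -0.19 ± 0.12 (adjusted p = 0.21). Subcluster 8 (51.57 to 53.58 Mb, ZNF175 to ZNF331) had 35 tested genes, ZNF175 as its sole call, a median of 0.10 and a sum at 99.5% of the sgCtrl mean, with ZNF83, its most abundant gene per length, at -0.10 ± 0.09. Without sgNF2-1 replicate 1 its median was 0.02, and 1 of 2 other genes in its span fell, with a median of -0.44 in the fit of all libraries. Subcluster 1 (2.82 to 2.94 Mb, 5 genes, ZNF77 the most abundant per length) had no call by edgeR, none at an unadjusted p below 0.05, and a median of 0.14, which was -0.12 without sgNF2-1 replicate 2.

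Subcluster 9 (55.48 to 58.48 Mb, ZNF628 to ZNF446) was the largest, with 54 of 59 genes tested, of which 5 rose (9.26%) and 1 fell (1.85%). Its median was 0.08, which was 0.03 without sgNF2-1 replicate 1 and 0.13 without sgNF2-1 replicate 2. Its summed level was 634.6, 593.8 and 581.5 CPM against 694.7, 665.8 and 693.2 CPM, 113% of the sgCtrl mean. With a gap of 0.5 Mb it separated into a first piece (55.48 to 56.67 Mb) and a second (57.19 to 58.48 Mb). In the first piece 4 of 12 tested genes rose, ZNF579, ZNF580, ZNF581 and ZNF787, none fell, the median was 0.22 and the median level 27 CPM. Also there, ZNF524 stood at 0.27 ± 0.12 (adjusted p = 0.098) and ZNF865 at 0.17 ± 0.10 (adjusted p = 0.20). In the second piece, of 42 tested genes with a median level of 5.30 CPM, ZNF773 rose, ZNF304 fell and the median was 0.05. Of the 18 other protein-coding genes inside the whole span 2 rose and 1 fell (median 0.01), and subclusters 1, 4 and 5 held no such tested gene. No test of 1 subcluster against another was made.

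**Figure D2:**
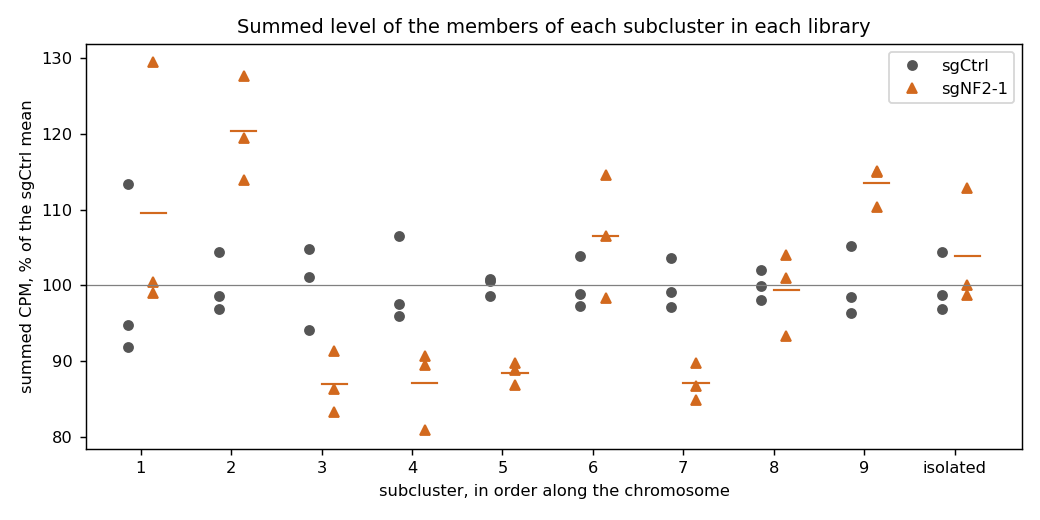
Summed CPM of the members of each subcluster (x axis, in chromosomal order, isolated members last) in each library, as a percentage of the sgCtrl mean (y axis, not starting at 0); circles are sgCtrl, triangles sgNF2-1 libraries, and lines the sgNF2-1 means. The arms are apart above 100% in subclusters 2 and 9 and below it in subclusters 3, 4, 5 and 7, and they overlap in 1, 6, 8 and the isolated members.

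The proteins were described from the longest coding sequence of each gene in GENCODE 29. The median number of C2H2 fingers was 12.5, and ZNF729 had the most with 39. A strict KRAB A box pattern, ending in glutamate and tryptophan, was found in 184 of 246 proteins but in only 2 of 24 of subcluster 7. A wider pattern that also allowed leucine at the last position, added after these values were seen, was found in 201, 19 of subcluster 7 among them. A box of another sequence would match neither pattern, so a gene with neither may still carry a KRAB box. The share with the wider pattern ran from 66.7% in subcluster 2 and 72.9% in subcluster 9 to 94.6% in subcluster 4 and 97.4% in subcluster 8, and all 5 proteins of subcluster 5 had it.

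By the strict pattern, 5 of the 48 tested genes without it rose and 2 fell (median 0.07), and 5 of the 144 with it rose and 7 fell (median 0.00). By the wider pattern the genes ZNF224 and ZNF226 moved to the class with a box. Of the 37 tested genes with neither pattern 5 rose, ZNF787, ZNF581, ZNF580, ZNF579 and ZNF358, and none fell (median 0.12), while of the 155 with the wider pattern 5 rose and 9 fell (median -0.04). The classes also differed in level, with medians of 12.4 and 4.15 CPM. From 10 CPM on there were 5 higher and no lower calls among 20 genes without the pattern, and 4 higher and 2 lower among 21 with it, where 22.7% of the other tested protein-coding genes of that level rose and 18.9% fell. Of the 26 tested genes with under 8 fingers 4 rose and 1 fell, of the 73 with 8 to 12 fingers 5 rose and 1 fell, and of the 93 with more than 12 fingers 1 rose and 7 fell. The medians of these classes were 0.08, 0.10 and -0.10. The 7 decreases in the last class were all among its 79 genes under 10 CPM, and of its 14 genes from 10 CPM on 1 rose and none fell. In that range 4 of 12 genes with under 8 fingers rose and 1 fell, as did 4 and 1 of 15 with 8 to 12 fingers. Across the 192 genes the Spearman correlation of log2 fold change with finger number was -0.28, and that with mean CPM was 0.18. Both are descriptions across genes that share libraries, clusters and sequence. The part that level, finger number and KRAB box each have in these counts was not tested.

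Since tandem duplicates can share reads, the transcripts were compared by runs of 100 bases. The median member had none of its runs in another gene elsewhere, and 5 members had more than 10%, with 23.7% as the highest. These were ZNF443 (shared with ZNF799) and the pairs ZNF98 with ZNF492 and ZNF587 with ZNF417, and the 3 of them that were tested were not called. Overlap with other gene spans was far more common and touched 135 of the 192 tested members. In 28 tested members more than 10% of the runs were shared with an overlapping gene, and of these 3 rose and 2 fell. Those that rose were ZNF358 (21.7% of its runs), ZNF562 (17.5%) and ZNF581 (12.9%), and those that fell ZNF224 (38.6%) and ZNF700 (11.6%). Reads of such shared parts can be hard to assign to 1 gene. Of the 57 tested members that overlap no other gene 3 rose and 4 fell (12.3% called, beside 34.3% of all tested genes).

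The promoters of 215 members were found in the RefSeq table (GRCh38.p14), as the 250 bases before the start site, and were searched on both strands for 4 exact motifs. CCGGAAG, the core bound by ETS factors, was in 32.1% of the members' promoters, against 16.6% of those of tested protein-coding genes and 8.82% of all in the table. A longer motif, ACTACA then any 2 bases then TCCC, which is part of the sequence known from ZNF143 sites, was in 14%, against 4.02% and 1.86%. GGAATG, the core bound by TEAD factors, was in 10.7%, against 9.38% and 11.9%, and CACGTG, an E box, in 3.72%, against 9.03% and 6.49%. In the 175 promoters of tested members alone the 4 shares, in the same order, were 33.7%, 14.3%, 9.14% and 4.57%. The part of like promoters of duplicated neighbours in these shares was not tested. CCGGAAG and GGAATG share the letters GGAA, and none of the 4 motifs holds another. Among the 10 genes that rose, 4 had CCGGAAG and 2 had the longer motif, and among the 9 that fell, 3 and 1. The stretches printed here are those of ZNF787 and ZNF226, which, among called genes with either of the first 2 motifs, rose and fell most, and of ZNF317 and ZNF224, which have the longer motif. ZNF358 has it too, but its RefSeq window lies inside the gene span of the count table and is not shown. Capitals mark matches of those 2 motifs on either strand; in ZNF787 a match on each strand overlaps.
ZNF787 (chr19:56121296-56121545, minus strand): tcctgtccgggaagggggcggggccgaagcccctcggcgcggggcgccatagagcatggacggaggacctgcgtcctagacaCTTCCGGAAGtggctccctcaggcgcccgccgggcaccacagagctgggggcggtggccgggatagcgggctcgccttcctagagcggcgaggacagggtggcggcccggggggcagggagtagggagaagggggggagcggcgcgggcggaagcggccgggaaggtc
ZNF226 (chr19:44164850-44165099, plus strand): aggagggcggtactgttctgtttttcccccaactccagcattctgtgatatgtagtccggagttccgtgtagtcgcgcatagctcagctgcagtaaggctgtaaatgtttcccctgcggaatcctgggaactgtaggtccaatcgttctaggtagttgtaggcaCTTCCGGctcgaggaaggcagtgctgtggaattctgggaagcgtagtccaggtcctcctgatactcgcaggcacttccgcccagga
ZNF317 (chr19:9140147-9140396, plus strand): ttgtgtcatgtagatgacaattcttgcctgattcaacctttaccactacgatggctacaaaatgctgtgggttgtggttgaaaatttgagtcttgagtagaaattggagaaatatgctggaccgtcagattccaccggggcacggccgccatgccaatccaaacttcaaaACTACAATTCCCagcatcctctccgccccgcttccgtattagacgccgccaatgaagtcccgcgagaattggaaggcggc
ZNF224 (chr19:44094111-44094360, plus strand): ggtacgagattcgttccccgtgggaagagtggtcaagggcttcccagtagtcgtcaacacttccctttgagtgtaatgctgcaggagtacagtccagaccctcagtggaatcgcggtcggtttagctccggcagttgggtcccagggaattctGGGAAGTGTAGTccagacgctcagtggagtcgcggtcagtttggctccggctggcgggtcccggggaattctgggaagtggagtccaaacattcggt
The longer motif thus stood before a gene that rose (ZNF317) and a gene that fell (ZNF224), and inside the counted span of ZNF358, which rose. CCGGAAG likewise stood before ZNF787, which rose, and ZNF226, which fell. A match is a description of letters and not a measured site.

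KRAB zinc finger proteins act through TRIM28 and its partners, so a list of 44 genes that act in this silencing pathway or on its marks was read. In the same fit 43 of them were tested, and ZFP57 had no count. Not every listed gene favours silencing, so a fall is not read as a loss of it. TRIM28 itself, also on chromosome 19, rose from 264, 249 and 237 CPM to 319, 344 and 368 CPM (0.46 ± 0.08, adjusted p = 0.00011). The list had a median level of 56.1 CPM. In the same fit 34.3% of all tested genes were called. Of protein-coding genes outside the members at 10 CPM or above 41.6% were called, 22.7% as higher and 18.9% as lower. In the list 5 genes rose (11.6%) and 13 fell (30.2%), which is 18 of 43 or 41.9%, with a median log2 fold change of -0.01. The others that rose were MTA1 (0.48), GATAD2A (0.43), FAM208B (0.30) and MTA2 (0.23); MTA1, MTA2 and GATAD2A are subunits of the NuRD deacetylase. The methyltransferase gene SETDB1 stood at 0.08 ± 0.12 (adjusted p = 0.64).

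Among the 13 that fell, CHD3, the NuRD helicase known to bind TRIM28, changed most, from 40.4, 42.8 and 42.4 CPM to 21.2, 21.7 and 21.1 CPM (-0.97 ± 0.10, adjusted p = 5.5e-08). UHRF1, which guides maintenance DNA methylation, fell by 0.56 on the log2 scale, and the deacetylase HDAC1 by 0.54. The genes of heterochromatin protein 1 all fell, CBX1 by 0.26, CBX3 by 0.37 and CBX5 by 0.36. ATF7IP, which stabilises SETDB1, fell by 0.37 and FAM208A, a core part of the HUSH complex, by 0.32. SUMO2 (-0.34), KDM4B (-0.31), RBBP4 (-0.30), H3F3A (-0.24) and PPHLN1 (-0.23) made up the rest. Subunits of the same complex thus moved in both directions. The 5 higher calls became 3 without sgCtrl replicate 1 or 2, without sgNF2-1 replicate 1 or 2, and with library totals.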

How the data were processed

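RNA of 3 sgCtrl and 3 sgNF2-1 libraries of H2452 cells was sequenced in pairs. Per the submitters' processing notes, HISAT2, StringTie 1.3.3b, featureCounts 1.5.0-p3 and the hg38 build were used; which step made which value is not fully stated. The authors deposited gene counts, which are not normalized, and FPKM values per gene, with the gene length.

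Members, gene lists and rules were chosen with earlier results of these data known. Counts of all genes were filtered (filterByExpr, minimum count 10, minimum total 15), scaled by TMM and tested with edgeR 4.0.16 (R 4.3.3) by the quasi-likelihood test, and p-values were adjusted by Benjamini-Hochberg over all 14179 tested genes. FPKM values were tested with limma 3.58.1 on log2(FPKM + 1) at a mean of at least 0.5 FPKM. The tests were checked on simulated data first. Total counts, 14782423 to 17416463 per library, limit precision for genes of a few CPM. Alternatives were DESeq2 1.42.0, DESeq2 size factors, library totals, other filters and call rules, a replicate block, other gaps (0.5 and 2 Mb), members without overlapping genes, and leaving out each library. Spans in the table equal those of GENCODE 29 for all 246 members. The genes named were up to 12 called genes per direction with arms apart, the most abundant gene per subcluster, the 10 members highest in FPKM and 15 genes of known role; ZNF426, ZNF561 and some uncalled extremes were added later. Values ± are SE for fold changes and SD for levels.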

Additional observations from a re-analysis of the deposited data

How the results depend on the processing

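The results above were recomputed under each alternative. Of the 19 called members 5 (ZNF787, ZNF581, ZNF358, ZNF317 and ZNF226) were called under all 12 refits, and 5 (ZNF224, ZNF302, ZNF426, ZNF429 and ZNF579) under at most 7. Under the rule of unadjusted p below 0.05 with an absolute log2 fold change above 0.5, 15 of the 192 members were called (7.81%), 6 of them higher. That rule called 20% of all tested genes. Under it ZNF genes of other chromosomes gave 18 higher and 10 lower, and other coding genes in the subcluster spans 9 higher. The TRIM28 list gave 0 higher (edgeR, adjusted p alone 5) and 3 lower. With that fold limit on the adjusted p the members gave 3 higher and 5 lower, where 17.7% of all genes were called, the ZNF genes of other chromosomes 18 and 9, the genes in the spans 9 higher, and the TRIM28 list 0 and 3. Members that overlap no other gene gave 3 higher and 4 lower (12.3%, beside 34.3% of all tested genes). Their sum was 103% of sgCtrl, and their medians were -0.02, -0.30 and 0.01 in subclusters 6, 7 and 9. Members sharing at most 1% of runs with another gene, an alternative added after the data were seen, gave 5 higher and 5 lower (10.1%). Their medians were -0.11, 0.00 and -0.20 in subclusters 5, 6 and 7. Fewer genes were counted in those 2 settings. With library totals the sum was 104% and the TRIM28 list had 3 higher. Without a filter the medians of subclusters 3 and 5 were -0.19 and 0.03, and the FPKM test called 2 higher and 1 lower, where 8.96% of all genes were called. With a gap of 2 Mb the merged blocks that hold subclusters 2, 3 and 5 had medians of -0.13, -0.13 and 0.05. The cause of these shifts was not tested.

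Leaving out 1 library at a time gave 6 to 11 members higher and 3 to 8 lower, and on FPKM 2 to 5 higher and 0 to 2 lower. It gave 18 to 29 higher and 9 to 17 lower ZNF genes of other chromosomes, and 3 to 5 higher and 10 to 13 lower in the TRIM28 list. Of all tested genes these fits called 27.1% to 32.9%, against 34.3% with all libraries. On FPKM they called 19.2% to 25.6%, against 28.4%. The medians ran from -0.12 to 0.22 in subcluster 1, 0.20 to 0.34 in 2, -0.31 to -0.22 in 3, -0.28 to -0.19 in 4, -0.12 to 0.01 in 5, 0.06 to 0.11 in 6, -0.24 to -0.07 in 7, 0.02 to 0.17 in 8 and 0.03 to 0.13 in 9. The deviations of libraries with the same replicate number correlated at -0.04, 0.07 and 0.06, and not every library correlated best with its own number. The labels do not say whether libraries of the same number were handled together. With so few libraries these values cannot decide it. A fit with a replicate block called 11 members higher and 10 lower, where 36.7% of all tested genes were called, against 34.3% without the block. About 74.2 counts per library, the median of the tested members, limit what a change of this size can show.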

Other observations

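Some C2H2 zinc finger genes of chromosome 19 do not carry a ZNF symbol and so are no members. Of 15 such genes tested, 4 rose and 3 fell (46.7% called). Of all tested genes 34.3% were called, and of the protein-coding genes of chromosome 19 outside the members 38.8%. KLF2, a Krüppel-like factor, rose from 78.6, 80.6 and 74.0 CPM to 143, 180 and 165 CPM (log2 fold change 1.06 ± 0.09, adjusted p = 1.7e-09, edgeR). KLF16 rose by 0.55, WIZ, a partner of the methyltransferases EHMT1 and EHMT2, by 0.43 and HKR1 by 0.35. Of the genes that fell, ZFP30 (-0.85 ± 0.28, adjusted p = 0.022) and ZFP14 (-0.82 ± 0.30, adjusted p = 0.039) are KRAB genes at 3.40 and 2.95 CPM in sgCtrl cells, and TSHZ3 fell by 0.36 on the log2 scale.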
